A study of Mus musculus with 108 samples.

Results

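In mouse liver, 82865 autosomal bins of 200 bp moved between the active enhancer states U3 and U4 in the same direction in both groups of 12-month-old mice. Of these, 44835 bins (8.97 Mb) moved from U3 to U4 and 38030 bins (7.61 Mb) moved from U4 to U3, out of 12313718 autosomal bins. The bins were chosen by their state labels: U3-to-U4 bins carried U3 in the SD 3m segmentation and U4 in both the SD 12m and the CR 12m segmentation, and U4-to-U3 bins carried U4 and then U3 in both. The number of switches is therefore a description, and so is every difference between the groups at these bins. Sequence and gene annotation were not used for the choice. The U4-to-U3 bins had the higher GC content, and at least 1 kb of them was found at a larger share of the examined genes of hepatocyte metabolism and secretion than of all genes examined. The gene lists were chosen with earlier results of these data known, so this share is a description. The U3-to-U4 bins had the lower GC content. They also lay within 2 kb of a transcription start site (TSS) more often, and this was likewise so for U3 bins compared to U4 bins in SD 3m.

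Chromatin immunoprecipitation followed by sequencing (ChIP-seq) of H3K4me3, H3K27me3, H3K27ac and H3K4me1 was performed by the study on formalin-fixed, paraffin-embedded livers of female C57BL/6 mice. SD 3m comprised 8 mice of 3 months on standard diet (SD), SD 12m comprised 8 mice of 12 months on the same diet, and CR 12m comprised 9 mice of 12 months fed 30% fewer calories from the age of 3 months (CR). The labels name no engineered allele, and the mice of 6 months were not analysed here. The authors merged the libraries of a group before states were assigned, so that each group has 1 segmentation and no replicate: the variation among mice is unknown for every difference, and no p-value is given.

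Enhancers are stretches of regulatory DNA that act on promoters from a distance. Acetylation of H3K27 marks enhancers and promoters in use, while mono-methylation of H3K4 marks enhancers whether in use or only primed, and is written by the KMT2C and KMT2D methyltransferases. In the model of the study, U3 carries both marks and U4 carries H3K27ac with little H3K4me1. The other states are U1 (active TSS), U2 (flanking TSS), U5 (poised enhancer, H3K4me1 without acetylation), U6 (Polycomb, H3K27me3), U7 (weak H3K4me3 in repeats) and U8 (no mark). The study labels U4 an active enhancer state, but elsewhere groups it with U5 as signatures of weak and poised enhancers. The segmentations hold labels and no signal, so the mark content of the states was not checked here. In bulk tissue, fewer cells with a mark and less of the mark per cell cannot be told apart.

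The labels were first compared with genes of known activity. Of 68 secreted plasma protein genes on autosomes, 66 had at least 1 kb of U3 within the gene body and 5 kb on either side in SD 3m, compared to 56.6% of 24963 autosomal genes and 5 of 38 neuronal genes. Markers of lymphocytes (10 of 30), of stellate cells and fibroblasts (8 of 25) and of macrophages (10 of 21) had U3 less often than hepatocyte genes. So did markers of cholangiocytes (11 of 18, 61.1%) and of endothelial cells (19 of 27, 70.4%). Both of these shares were above that of all autosomal genes. In the order SD 3m, SD 12m and CR 12m, U3 covered 9.90%, 10.6% and 12.4% of the autosomal bins, and U4 covered 6.71%, 9.82% and 8.56%. The merged H3K4me1 files held 8, 6 and 9 libraries and the merged H3K27ac files held 8, 7 and 9, in the same order of groups. How deeply the merged files were sequenced is not given in the sources used here, and the part of the library numbers in the switches was not tested.

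The longest stretches of each direction show the kind of sequence that switched. A stretch is an unbroken run of switched bins, and the middle bin of the 3 longest is printed for each direction (GRCm38.p6, the assembly that mm10 represents, forward strand). To these are added the bases before the TSS of Cd79b and F10, the genes of the examined lists whose TSS bin itself switched, on the strand of the gene. Capitals mark matches to 17 short motifs of transcription factors, among them the nuclear receptor motif AGGTCA, the glucocorticoid receptor motif AGAACA, the CEBP motif TTGCNNAA and TATAAA, on either strand.
U3-to-U4, intron and coding exon of Coq2, chr5:100663401-100663600: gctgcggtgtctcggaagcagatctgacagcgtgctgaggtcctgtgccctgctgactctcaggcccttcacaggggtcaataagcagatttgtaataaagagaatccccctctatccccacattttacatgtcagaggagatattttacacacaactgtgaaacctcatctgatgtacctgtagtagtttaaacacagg
U3-to-U4, intron of Btaf1, chr19:36967801-36968000: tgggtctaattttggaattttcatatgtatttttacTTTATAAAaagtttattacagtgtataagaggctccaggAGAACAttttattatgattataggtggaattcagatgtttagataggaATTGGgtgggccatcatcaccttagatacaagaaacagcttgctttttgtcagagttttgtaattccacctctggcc
U3-to-U4, intergenic, chr4:88704201-88704400: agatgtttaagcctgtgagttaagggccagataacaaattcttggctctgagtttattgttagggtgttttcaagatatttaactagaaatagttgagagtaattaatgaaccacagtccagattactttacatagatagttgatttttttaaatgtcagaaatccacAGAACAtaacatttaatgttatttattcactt
U3-to-U4, before the TSS of Cd79b, chr11:106314563-106314600: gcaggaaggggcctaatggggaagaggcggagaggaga
U4-to-U3, intergenic, chr9:55315601-55315800: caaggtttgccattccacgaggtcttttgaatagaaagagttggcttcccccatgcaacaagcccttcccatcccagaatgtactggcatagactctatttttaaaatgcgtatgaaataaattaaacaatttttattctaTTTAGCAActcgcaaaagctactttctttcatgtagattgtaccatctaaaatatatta
U4-to-U3, intergenic, chr3:118463601-118463800: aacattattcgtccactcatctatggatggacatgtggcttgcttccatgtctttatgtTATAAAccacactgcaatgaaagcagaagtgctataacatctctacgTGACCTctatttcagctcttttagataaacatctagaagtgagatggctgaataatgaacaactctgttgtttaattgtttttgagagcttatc
U4-to-U3, intron of Fam20c, chr5:138796001-138796200: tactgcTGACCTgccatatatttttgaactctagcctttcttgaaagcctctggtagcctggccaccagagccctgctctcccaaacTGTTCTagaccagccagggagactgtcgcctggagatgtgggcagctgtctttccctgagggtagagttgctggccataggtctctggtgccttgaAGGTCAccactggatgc
U4-to-U3, before the TSS of F10, chr8:13037201-13037307: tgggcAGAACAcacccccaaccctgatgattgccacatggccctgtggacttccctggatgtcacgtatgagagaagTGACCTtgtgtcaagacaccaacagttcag
The 3 printed U3-to-U4 bins had GC contents of 47.5%, 34.0% and 30.0% and the 3 U4-to-U3 bins 35%, 36.5% and 54.5%, so that single bins of both directions covered a wide range.

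Of 1219378 autosomal U3 bins in SD 3m, 3.68% (3.55 to 3.81) were in U4 in both 12-month groups. The interval in parentheses is the Wilson 95% interval, which covers counting error only. Its units are here the unbroken stretches of the starting state in SD 3m, and below the unbroken stretches of switched bins. Of 826207 U4 bins in SD 3m, 4.60% (4.41 to 4.81) were in U3 in both. The start states differed more in what they kept: 82.5% of the U3 bins remained U3 in both groups, compared to 54.7% of the U4 bins that remained U4. Both percentages of switched bins are fixed by the rule.

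The 12-month groups were not alike in either direction. In SD 12m alone, 8.14% of the U3 bins were in U4 and 5.55% of the U4 bins were in U3. In CR 12m alone, the values were 6.44% and 16.9%. There were thus 2.16 times as many U3-to-U4 as U4-to-U3 bins in SD 12m and 0.564 times as many in CR 12m, and with both groups required the ratio was 1.18. Both comparisons share the SD 3m segmentation. The U3-to-U4 bins made up 45.2% of the bins that moved this way in SD 12m and 57.1% of those in CR 12m. The U4-to-U3 bins made up 82.9% of those in SD 12m but 27.3% of those in CR 12m. A further 91223 U4 bins (11%) were in U3 in CR 12m only while they remained U4 in SD 12m, against 7054 (0.854%) that were in U3 in SD 12m only.

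U3 bins that left U3 went to U4 or to U5, while those that left U4 went to U8 or to U3. Of the U3 bins, 5.68% were in U5 and 0.143% in U8 in SD 12m, compared to 3.79% and 0.362% for CR 12m. Of the U4 bins, 16.7% were in U8 in SD 12m and 15.9% in CR 12m, and 3.74% and 3.91% were in U5. The move from U4 to U8 was thus more frequent than the move to U3 in SD 12m, whereas U3 was slightly ahead in CR 12m.

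Switched bins lay in short stretches. The 44835 U3-to-U4 bins formed 13722 stretches with a median of 400 bp and a mean of 653 bp, and the 38030 U4-to-U3 bins formed 10652 stretches with a median of 600 bp and a mean of 714 bp. Stretches of 1 bin made up 28.6% and 28.1%, and stretches of at least 1 kb made up 21.7% and 25.5%, holding 49% and 55.6% of the bins. Bins that were U3 in all 3 groups formed stretches of 1600 bp (median), as did bins that were U4 in all 3. Neighbouring stretches of the same direction lay close together, at a median of 4.2 kb in both directions. The nearest stretch of the opposite direction lay at a median of 59.8 kb from a U3-to-U4 stretch and of 44.8 kb from a U4-to-U3 stretch. Of 2454 windows of 1 Mb, 1189 (48.5%) held both directions, 323 held U3-to-U4 bins alone and 127 held U4-to-U3 bins alone.

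The directions differed in their place within the starting chromatin. A U3-to-U4 stretch took up a whole U3 island of SD 3m in 42.0% of cases and one edge of it in 50.1%, and lay inside it in 7.90%. For U4-to-U3 stretches, the shares were 17.3%, 61.8% and 20.9%. Bins of short islands had the higher shares: 18.6% of the bins in U3 islands under 1 kb moved to U4, compared to 6.32% in islands of 1 to 5 kb and 0.687% in longer ones. The shares for bins of U4 islands were 14.9%, 6.90% and 2.99%. Counted by islands, at least 1 bin switched in 22.6%, 16.2% and 8.12% of the U3 islands but in 18%, 19.8% and 26.4% of the U4 islands of these lengths, so the order by length was opposite for the start states. Most U3 bins of SD 3m (715986) lay in islands over 5 kb.

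The bins on either side of a stretch, which by construction did not switch in the same direction in both groups, are described next. ChromHMM takes the neighbours of a bin into account, so that adjacent labels are not independent. In SD 3m, the bins that flanked U3-to-U4 stretches were U4 in 35.3%, U3 in 32.9% and U5 in 27.2% of cases. In SD 12m, 80.4% of these flanking bins were U4 and 0.703% were U5, and in CR 12m 76.7% and 0.503%. Of 7469 flanking bins in U5 in SD 3m, 98.2% were in U4 in SD 12m and 97.2% in CR 12m. U5 is the state of H3K4me1 without acetylation, so the state of these bins and that of the switched stretch beside them converged on U4. The bins that flanked U4-to-U3 stretches were U4 in 51.8% and U3 in 45% in SD 3m. In SD 12m, 53.4% of them were U3 and 38.5% U4, and in CR 12m 83.3% and 14.5%. At 2 kb from the centre, towards higher coordinates, of a U3-to-U4 stretch U4 made up 33.6% of the bins at 3 months, 65.7% at 12 months on SD and 59.8% on CR. At the same distance from U4-to-U3 stretches, U3 made up 41.8%, 50.9% and 71.2%. The bins counted at 2 kb include members of the same or of neighbouring stretches, whose states the rule sets. In both directions, 53.1% of the stretches had another stretch of the same direction within 5 kb. The values at 2 kb are therefore a description and not independent of the choice of bins. Around U4-to-U3 stretches, the U3 share at this distance was higher in CR 12m than in SD 12m.

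**Figure D1:**
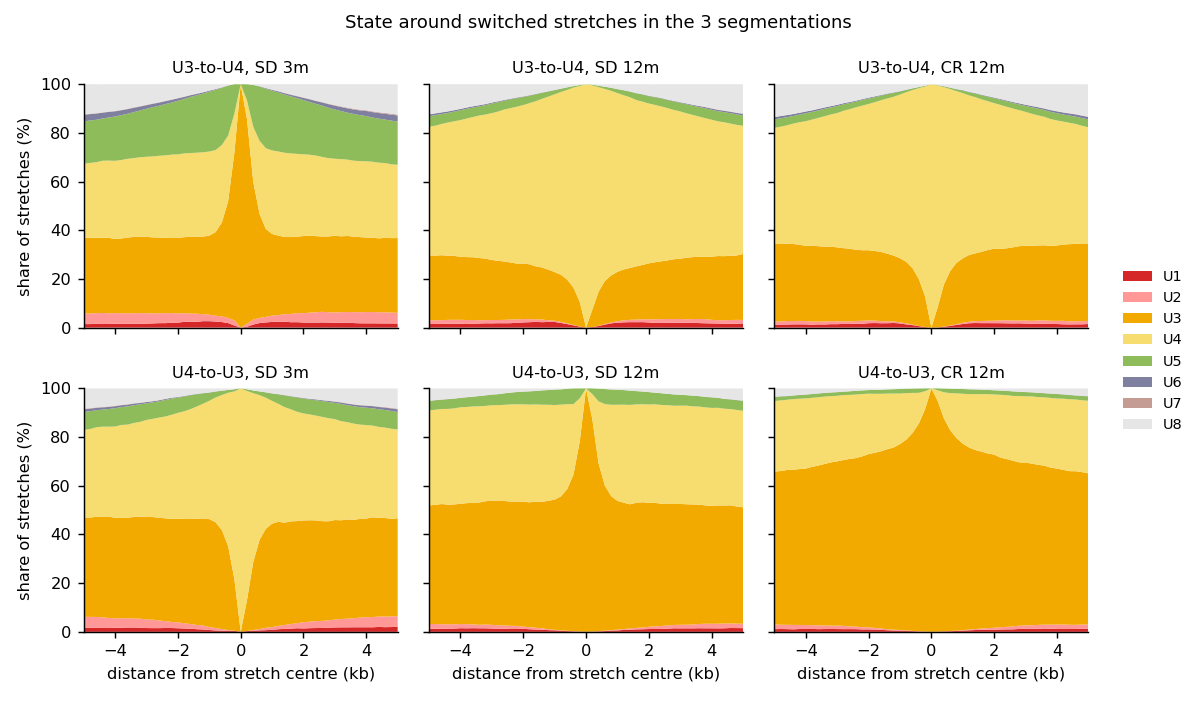
Share of stretches (%, y axis) in each of the 8 states against the distance from the stretch centre (kb, x axis), in SD 3m, SD 12m and CR 12m (columns) for U3-to-U4 stretches (top) and U4-to-U3 stretches (bottom). The values of 0 and 100% at the centre are set by the rule, and bins away from the centre include other switched bins. At 2 kb, U4 around U3-to-U4 stretches goes from 33.6% at 3 months to 65.7% at 12 months on SD and 59.8% on CR.

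All 19 autosomes held both directions. U3-to-U4 bins made up 2.64% of the U3 bins of chromosome 15 and 4.54% of those of chromosome 17, the lowest and the highest share, with a median of 3.72%. U4-to-U3 bins made up 3.70% of the U4 bins of chromosome 18 and 7.90% of those of chromosome 19, with a median of 4.33%. On 15 of 19 autosomes the U4 bins switched at a higher share than the U3 bins. Chromosome 19 stood apart with a U4-to-U3 share 2.84 times its U3-to-U4 share of 2.78%. In counts of bins, U3-to-U4 was the more frequent direction on 16 of 19 autosomes.

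**Figure D2:**
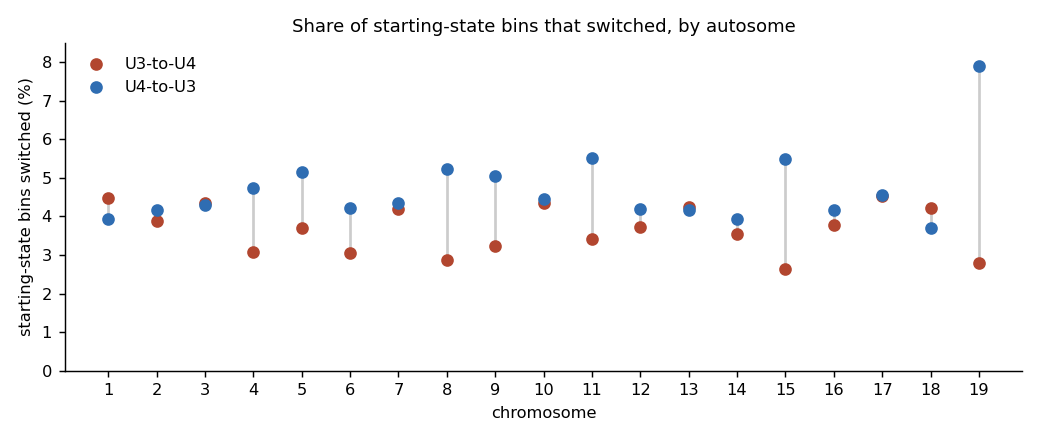
Share of starting-state bins that switched (%, y axis) on each autosome (x axis), with U3-to-U4 as a share of the U3 bins in red and U4-to-U3 as a share of the U4 bins in blue. Chromosome 19 has the highest U4-to-U3 share (7.90%), and chromosome 15 the lowest U3-to-U4 share (2.64%).

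The base composition of the directions was opposite relative to their starting states. U3-to-U4 bins had a mean GC content of 41.8% (41.0 to 42.6) and bins that were U3 in all 3 groups 44.3%. U4-to-U3 bins had 45.2% (44.3 to 46.2) and bins that were U4 in all 3 groups 43.4%. These intervals treat each stretch as a yes-or-no count, so they do not measure the error of a mean GC content. The mean of all assembled autosomal bins was 41.9%. On each of the 19 autosomes, the U4-to-U3 bins had the higher GC content, with 43.6% to 46.7% compared to 40.3% to 43.1% for the U3-to-U4 bins. The shares switched followed the GC content of the bin. Of the U3 bins with a GC content under 35%, 5.69% moved to U4, and this share was lower in each higher class, down to 2.11% of the bins with at least 55%. Of the U4 bins, 1.92% of those under 35% moved to U3, compared to 6.36% of those from 50% to 55% and 5.90% of those with at least 55%. CpG dinucleotides numbered 9.08 per kb in U3-to-U4 bins and 10.5 per kb in U4-to-U3 bins, and 9.78 and 9.76 in the bins that remained U3 and U4. The difference in GC content held both within 2 kb of a TSS (43.9% and 47.6%) and farther away (41.6% and 45.1%).

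Motif matches were counted in the bins of both directions. TATAAA was found in 19.3% of the U3-to-U4 bins and 12.9% of the U4-to-U3 bins, compared to 18.9% of all assembled autosomal bins of the same length. The D-box TTATGNAA, bound by PAR bZIP factors such as DBP, was found in 4.25% and 2.94% (4.48% of all bins), and the FOXA motif TGTTTAC in 3.44% and 2.66% (2.98%). More frequent in U4-to-U3 bins were the E-box CACGTG with 3.01% compared to 2.28% (1.99% of all bins), the nuclear receptor motif AGGTCA with 13.1% compared to 11.4% (11.1%) and the HNF4A motif CAAAGTCCA with 0.305% compared to 0.203% (0.257%). The core motif AGGGGGCGC of CTCF, the factor that insulates chromatin domains, is GC-rich but had its higher share in the direction of lower GC content, with 0.118% of U3-to-U4 bins, 0.0552% of U4-to-U3 bins and 0.04% of all bins. AGAACA was found in 17.8% and 17.6%. In the bins that remained U3, AGGTCA was found in 13.3% and CAAAGTCCA in 0.335%, so neither was particular to the U4-to-U3 bins. In the bins that remained U4, the shares were 11.5% and 0.238%. TATAAA was found in 14.7% of the bins that remained U3 and 17.1% of those that remained U4. The part of GC content in the motif shares was not tested. Motifs were searched on both strands, and a match is a description of the letters and not of binding. Bases that the reference marks as repeats made up 26% of the U3-to-U4 bins and 26.3% of the U4-to-U3 bins, compared to 24.4% and 30.9% of the bins that remained U3 and U4.

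A larger share of the U3-to-U4 bins lay close to a TSS. Within 2 kb of the TSS of the longest RefSeq transcript of a gene lay 8.74% (8.28 to 9.23) of the U3-to-U4 bins and 4.38% (4.00 to 4.78) of the U4-to-U3 bins, compared to 5.46% of the bins that remained U3 and 3.66% of those that remained U4. The share of U3-to-U4 bins was the higher on each of the 19 autosomes. The start states differed in the same way, with 69358 of 1219378 U3 bins and 29192 of 826207 U4 bins within 2 kb of a TSS in SD 3m. Of these, 5.65% and 5.70% switched, compared to 3.56% and 4.56% of the bins farther away, so both directions were more frequent near a TSS and at nearly the same share. Of the U3 bins from 200 to 500 bp from a TSS, 7.32% moved to U4, compared to 3.69% of those from 2 to 5 kb away and 3.57% of those from 10 to 50 kb. Of the U4 bins, 4.29% of those from 200 to 500 bp moved to U3 and 6.23% of those from 1 to 2 kb, so the highest share lay outside the promoter. Within 2 kb, 62.8% of the U3-to-U4 bins and 64.3% of the U4-to-U3 bins lay upstream of the TSS, compared to 63.5% and 62.3% of the bins that remained U3 and U4 and 48.1% of all bins in this range, so that this side was common to all U3 and U4 bins. Most bins of both directions were far from promoters, with median distances of 18 kb and 18.1 kb.

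**Figure D3:**
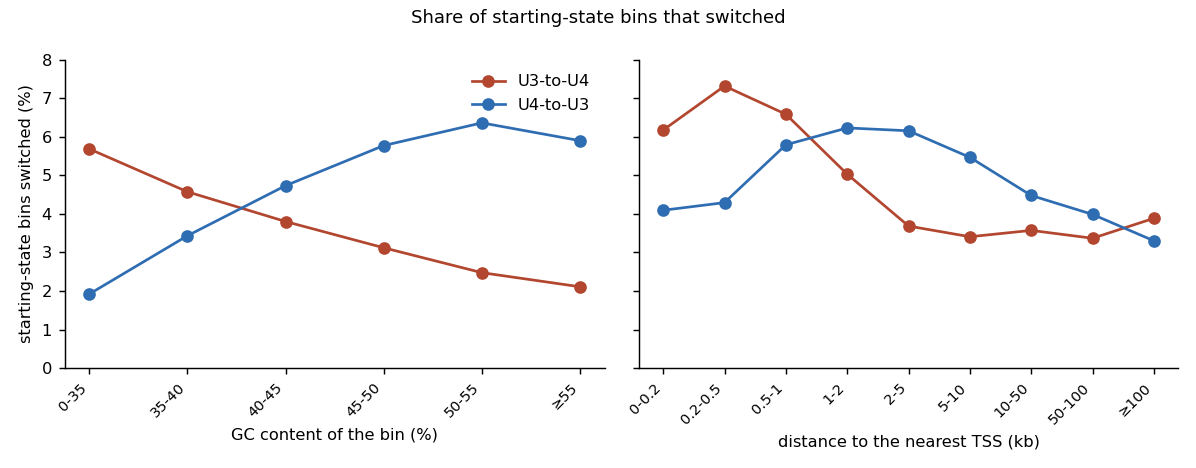
Share of starting-state bins that switched (%, y axis) by the GC content of the bin (%, left) and by the distance to the nearest TSS (kb, right), for U3-to-U4 (red) and U4-to-U3 (blue). The U3-to-U4 share goes from 5.69% under 35% GC to 2.11% at 55% or more, and the U4-to-U3 share from 1.92% to 5.90%.

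Of the U3-to-U4 bins, 51.6% lay in introns, 43.8% were intergenic, 2.44% lay in 3' UTR and 1.48% in coding exons. Of the U4-to-U3 bins, 46.4% lay in introns, 47.7% were intergenic, 2.19% lay in 3' UTR and 3.19% in coding exons. The bins that remained U3 and U4 lay in introns in 65.7% and 54.0%. In gene bodies as a whole lay 56.2% (55.4 to 57.0) of the U3-to-U4 and 52.3% (51.3 to 53.2) of the U4-to-U3 bins, compared to 69.3% and 60.9% of the bins that remained U3 and U4. The gene body share of U3-to-U4 bins was the higher on 16 of 19 autosomes. Of the intergenic U3 bins 5.12% moved to U4 and of the intronic ones 2.92%, and for U4 bins the shares were 5.51% and 3.96%.

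Of 1671 TSS bins in U3 in SD 3m, 97 (5.80%) were in U4 in both 12-month groups, and of 1380 in U4, 54 (3.91%) were in U3 in both, compared to 3.68% of all U3 bins and 4.60% of all U4 bins. Of the former 67 and of the latter 38 belonged to protein-coding genes. Of the examined lists only 2 genes had such a TSS. Cd79b, a subunit of the B cell antigen receptor, went from U3 to U4 at chromosome 11, position 106314562. F10, which encodes coagulation factor X, went from U4 to U3 at chromosome 8, position 13037308.

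At the level of genes, at least 1 kb of U3-to-U4 sequence was found at 2537 of 14139 genes with at least 1 kb of U3 in SD 3m (17.9%), and at least 1 kb of U4-to-U3 sequence at 1935 of 11648 genes with at least 1 kb of U4 (16.6%). A gene here is its body with 5 kb on either side, and genes that meet this length are called switched. The called genes were longer and spanned, with flanks, a median of 45 kb and 44.6 kb compared to 28.4 kb and 32.8 kb for the genes examined. No switched bin was found at 59.6% of the genes examined for U3-to-U4 and at 64.5% of those examined for U4-to-U3. At 304 genes both directions were called, which is 12.0% of the U3-to-U4 and 15.7% of the U4-to-U3 genes.

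Genes of hepatocyte metabolism and secretion were called U4-to-U3 more often than all genes examined. For this, 6 lists were joined (plasma proteins, cytochrome P450, fatty acid and sterol synthesis, fatty acid oxidation, gluconeogenesis with amino acid catabolism and urea cycle, and bile acids), which gave 273 autosomal genes. The lists and their joining were chosen with earlier results of these data known, so the shares are a description. The hepatocyte transcription factors, which were not joined, were called U4-to-U3 at 1 of 16 genes (6.25%). Of 186 with U4 in SD 3m, 81 (43.5%) were called U4-to-U3, compared to 16.6% of all genes examined, and 11 of 264 (4.17%) were called U3-to-U4, compared to 17.9%. Their median share of U4 bins switched to U3 was 6.88%, compared to 0 over all genes examined, and in total 229.4 of 1818.4 kb of U4 moved to U3 (12.6%, compared to 4.34% over all genes). The U4 of these genes summed to 1830.8 kb in SD 3m, 1823.6 kb in SD 12m and 2304.0 kb in CR 12m, and so was not lower in CR 12m, while U3 summed to 4371.4 kb, 5345.6 kb and 6463.4 kb. U4-to-U3 sequence was longer than U3-to-U4 sequence at 120 of the 273 genes and shorter at 23. Over all 24963 autosomal genes it was longer at 3460 and shorter at 5264. The median region of the 186 genes was 35.2 kb, compared to 32.8 kb.

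The list of gluconeogenesis, amino acid catabolism and urea cycle genes had the highest share, with 22 of 35 genes called U4-to-U3 (62.9%) and 2 of 51 called U3-to-U4. The shares of all genes examined were 16.6% and 17.9%. At Gldc, the glycine decarboxylase of the glycine cleavage system, 7.8 kb moved to U3, and U3 covered 19.6 kb in SD 3m, 63.6 kb in SD 12m and 58.6 kb in CR 12m. At Dpys, which degrades pyrimidines, 7.2 kb moved, U4 covered 51.6 kb, 24.6 kb and 38.2 kb, and U3 covered 32.4 kb, 44.6 kb and 58.8 kb. Both genes thus had more U3 in the 12-month groups, while U4 at Gldc was not shorter (18.2 kb, 19.6 kb and 27 kb). At Asl, a urea cycle enzyme, 2.6 of 7.2 kb of U4 moved to U3. Acmsd (4.6 kb), Cbs (2.6 kb) and Aass (2.4 kb), enzymes of tryptophan, cysteine and lysine metabolism, were the other genes with the most switched sequence in this list.

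Of the bile acid genes, 12 of 23 were called U4-to-U3 (52.2%), compared to 16.6% of all genes examined. At Abcb4, the phospholipid transporter of bile, 8.0 of 32.0 kb of U4 moved to U3, and U3 covered 30.4 kb in SD 3m, 44.4 kb in SD 12m and 53.6 kb in CR 12m. At Akr1d1, a reductase of bile acid synthesis, 7.4 kb moved, and at Abcc2, an exporter of conjugates, 4.6 of 8.6 kb moved. Slco1a4 (5.6 kb), Klb (3.8 kb), the co-receptor of FGF15, and Abcb11 (3.2 kb), the bile salt export pump, were called as well. Slco1a1 was the only bile acid gene called in the other direction, with 2.2 kb. Cyp7a1, the rate-limiting enzyme of bile acid synthesis, had no member of either direction and 16.4 kb, 15.0 kb and 17 kb of U3 in the 3 groups.

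Of the plasma protein genes, 18 of 44 were called U4-to-U3 (40.9%) and 2 of 66 U3-to-U4 (3.03%). The shares of all genes examined were 16.6% and 17.9%. Cpb2 (2.2 kb) and Cp (1.6 kb) were those called U3-to-U4, and Cp was also called U4-to-U3 (1.2 kb). At Rbp4, the retinol carrier, 6.2 of 9.2 kb of U4 moved to U3, and U4 covered 0.8 kb in either 12-month group. The whole U4 length of Apob (2.8 kb) and Vtn (2.6 kb) moved. Masp1 (3.4 kb), C8a (2.4 kb) and F7 (2.4 kb), of the complement and coagulation systems, were the other genes with the most switched sequence. Alb had 0.8 kb of U4-to-U3 sequence and Apoa1 none, both under the length that was called.

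Of the cytochrome P450 genes, 10 of 27 were called U4-to-U3 (37.0%) and none of 32 U3-to-U4. The shares of all genes examined were 16.6% and 17.9%. At Cyp2b10, which is induced by xenobiotics through the receptor CAR, 7.4 of 8.6 kb of U4 moved to U3, and U3 covered 14.0 kb in SD 3m, 33.0 kb in SD 12m and 36.4 kb in CR 12m. Cyp3a13 (5.2 kb), Cyp2c54 (4.4 kb), Cyp2c39 (3.8 kb), Cyp2u1 (1.6 kb) and Cyp3a44 (1.6 kb) were among the others called. Most of these genes lie in clusters of near-identical copies, where reads with a mapping quality under 1 had been removed, and their states are uncertain to that extent.

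Of the fatty acid oxidation genes, 11 of 28 were called U4-to-U3 (39.3%) and none of 45 U3-to-U4. The shares of all genes examined were 16.6% and 17.9%. Ppara, the nuclear receptor that drives fatty acid oxidation in fasting, had 5.0 of 5.4 kb of U4 switched, and U3 covered 53.4 kb in SD 3m, 70.0 kb in SD 12m and 72.4 kb in CR 12m. Acsl1 (4.6 kb), Eci2 (3.2 kb), Etfa (2.2 kb), Ppargc1a (2.2 kb) and Acaa1a (1.4 kb) were called as well. Of the fatty acid and sterol synthesis genes, 8 of 29 were called U4-to-U3 (27.6%) and 6 of 42 U3-to-U4 (14.3%). The latter was the highest U3-to-U4 share of the joined lists, but below the 17.9% of all genes examined. Acaca (5.8 kb), Elovl5 (5.4 kb), Acly (4.0 kb), Elovl2 (2.2 kb) and Srebf2 (2.2 kb) had the most U4-to-U3 sequence, and Me1 (2.0 kb), Lpin1 (1.4 kb), Mlxipl, Mvd, Pnpla3 and Sqle (1.0 kb each) were those called U3-to-U4.

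Zonation and signalling genes were described by further lists. Over all genes examined, 16.6% were called U4-to-U3 and 17.9% U3-to-U4, and 4.34% of their U4 and 3.38% of their U3 moved. Of the genes of periportal hepatocytes, 8 of 16 were called U4-to-U3 (50%) and none of 26 U3-to-U4, and 31.6 of 110.0 kb of their U4 moved to U3 (28.7%). Slc7a2, an arginine transporter, had 9.0 kb and Etnppl 5.0 kb. Gldc and Asl, described above, belong to this list too. Of the pericentral genes, 4 of 16 were called U4-to-U3 (25%) and 2 of 20 U3-to-U4 (10%), and Slc1a2, a glutamate transporter, had 9.6 kb of U3-to-U4 sequence. Of the clock genes, 5 of 14 were called U4-to-U3 (35.7%), with 4.2 kb at Cry2, 2.6 kb at Noct, 1.8 kb at Per2 and 1.0 kb at Cry1, all but Noct repressors of the clock, and 3 of 24 were called U3-to-U4 (12.5%), with 1.2 kb each at Npas2 and Usp2. Rora, a nuclear receptor that activates Bmal1 and the other clock gene of each direction, was called in both, with 15.2 kb to U3 and 11.4 kb to U4 in a region of 744.4 kb. Of the growth hormone, IGF and insulin genes, 7 of 29 were called U4-to-U3 (24.1%), among them Stat5b, which transmits growth hormone signals, with 6.2 of 7.4 kb, and Igfbp2 with 3.2 kb. Of this list, 3 of 37 were called U3-to-U4 (8.11%), namely Pik3cb (6.4 kb), a catalytic subunit of PI3 kinase, Grb14 (1.6 kb), an inhibitor of the insulin receptor, and Igfbp4 (1.2 kb). Ghr had 0.4 kb of U4-to-U3 sequence and Igf1 none. The metabolite-sensing nuclear receptors were called U4-to-U3 in 5 of 18 (27.8%) and U3-to-U4 in 5 of 29 (17.2%), the latter near the share of all genes. Of the hepatocyte transcription factors, 1 of 16 was called U4-to-U3 (Gata4) and 3 of 32 U3-to-U4 (Nfia, Zhx2 and Gata6), and Hnf4a had no member.

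**Figure D4:**
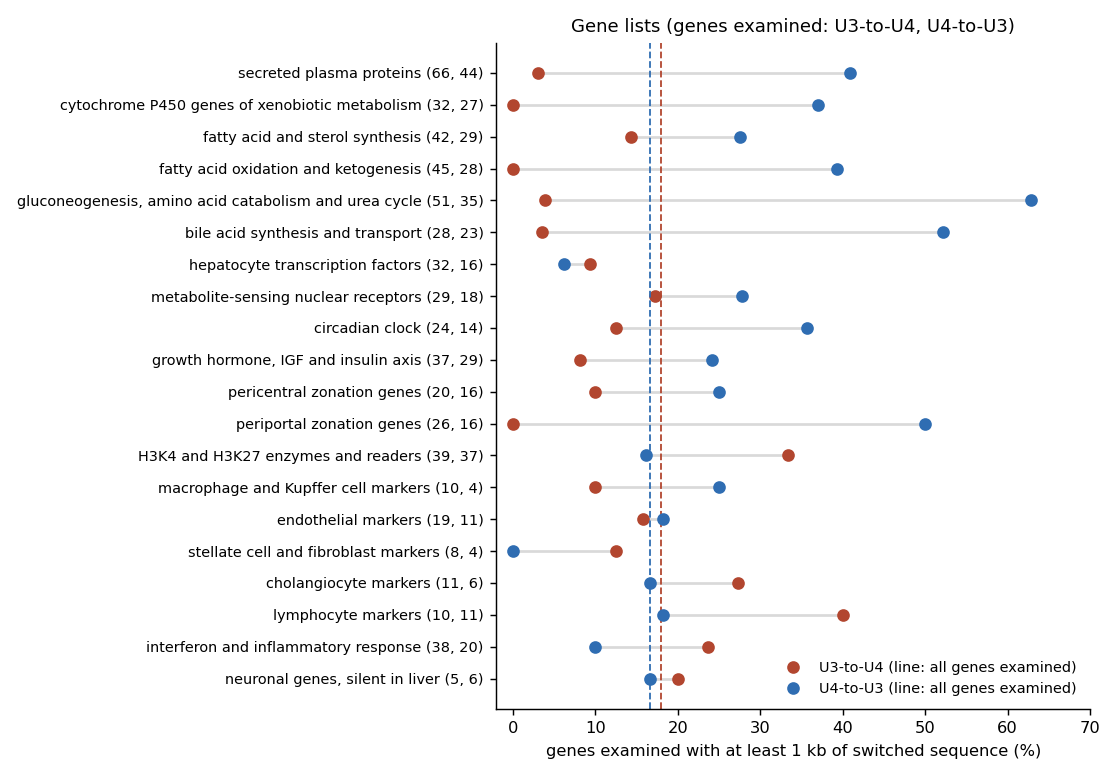
Percent of the genes examined (x axis) that were called U3-to-U4 (red) or U4-to-U3 (blue) in each of 20 gene lists (y axis, with the numbers of genes examined in parentheses), and over all genes examined (dashed lines, 17.9% and 16.6%). The U4-to-U3 share is above the U3-to-U4 share in 13 lists, among them the 6 lists of hepatocyte metabolism and secretion.

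Genes of inflammation and of immune cells were examined next. Of the interferon and inflammatory genes, 9 of 38 were called U3-to-U4 (23.7%) and 2 of 20 U4-to-U3 (10%), and U3-to-U4 sequence was the longer at 17 genes and the shorter at 3. At Nfkb1, a subunit of NF-kB, 13.2 kb moved to U4. U3 at this gene covered 55.2 kb in SD 3m, 48.0 kb in SD 12m and 37.0 kb in CR 12m, and U4 16.8 kb, 65.0 kb and 75 kb. Ifit2 (5.4 kb), Ddx58 (2.8 kb), Saa3 (1.6 kb), Il1b (1.4 kb) and Tlr2 (1.2 kb) were called as well, of which Ifit2 was also called U4-to-U3 (1.6 kb). The share called was above the 17.9% of all genes, but the list is small.

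Of the lymphocyte markers, 4 of 10 were called U3-to-U4 (40%) and 24.2 of 100.0 kb of their U3 moved to U4, compared to 3.38% over all genes, with 14.6 kb of it at Cd28. At Cd28, the co-stimulatory receptor of T cells, U3 covered 29.0 kb in SD 3m, 14.2 kb in SD 12m and 9.0 kb in CR 12m, and U4 7.2 kb, 22.4 kb and 28.0 kb. At Cd79b, U3 covered 6.0 kb, 1.8 kb and 0.4 kb, and U4 0 kb, 11.4 kb and 12.8 kb. Lck (3.8 kb), a T cell kinase, and Cd79a (1.0 kb) were called too, while Cd4 (3.0 kb) and Prf1 (2.8 kb) were called U4-to-U3. Over the 30 lymphocyte markers, U4 summed to 77.8 kb in SD 3m, 186.2 kb in SD 12m and 138.2 kb in CR 12m (131481, 188851 and 172370 kb over all autosomal genes), and 10 markers, among them Ms4a1, Cd2, Pax5 and Il7r, had neither U3 nor U4 in any group. The number of lymphocytes in the livers is unknown here, and its part in these switches was not tested.

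The other markers of non-hepatocyte cells were few among the genes examined. U3-to-U4 was called at 1 of 10 macrophage markers (Spi1), 3 of 19 endothelial markers (Vwf, Nos3 and Pecam1), 1 of 8 stellate cell and fibroblast markers (Col1a1) and 3 of 11 cholangiocyte markers (Ggt1, Spp1 and Anxa4). U4-to-U3 was called at 1 of 4, 2 of 11, none of 4 and 1 of 6 (Spi1, then Stab2 and Gata4, then Pkhd1). Over all 5 lists of markers, 12 of 58 genes (20.7%) were called U3-to-U4 and 6 of 36 (16.7%) U4-to-U3. Both shares were near the 17.9% and 16.6% of all genes examined. U4 over these 121 genes summed to 258.6 kb in SD 3m, 689.8 kb in SD 12m and 663.6 kb in CR 12m, again beside a higher sum over all genes, while U3 summed to 787.6 kb, 893.8 kb and 992.0 kb. Defining markers such as Clec4f, Timd4 and Adgre1 of Kupffer cells and Lrat and Des of stellate cells were among the 32 genes with neither state in any group.

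Enzymes and readers of H3K4 and H3K27 were called U3-to-U4 in 13 of 39 cases (33.3%) and U4-to-U3 in 6 of 37 (16.2%). Over all genes examined, the shares were 17.9% and 16.6%. Kdm5b and Kdm1a, demethylases of H3K4, had 2.8 kb and 2.4 kb of U3-to-U4 sequence. Ncoa3 (2.6 kb), Hdac1 (2.2 kb), Setd7 (1.6 kb), a methyltransferase of H3K4, and Crebbp (1.4 kb), an acetyltransferase of H3K27, were called as well. Kdm2b (6.6 kb), Ncor1 (4.2 kb) and Kdm1b (2.8 kb) had the most U4-to-U3 sequence. The median region of this list, 55.4 kb, was longer than that of all genes examined, and the share of its U3 that moved (2.5%) was below the 3.38% of all genes. Of the neuronal genes, 5 and 6 could be examined, and Syt1 was called in both directions.

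The shares were also computed for each 12-month group on its own. Of the U4 of the 6 joined hepatocyte lists, 14.4% was in U3 in SD 12m and 33.0% in CR 12m, compared to 5.30% and 16.1% over all genes. Of the U3 of these lists, 2.23% was in U4 in SD 12m and 1.43% in CR 12m, compared to 7.31% and 5.91%. Of the U3 of the lymphocyte markers, 28.8% and 33.4% was in U4. In each group the lists thus stood on the same side of all genes. The groups are not independent here, because both shares include the bins switched in both groups and start from the same SD 3m segmentation. Over all autosomal bins, 82.9% of the U4-to-U3 bins of SD 12m were switched in both groups.

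Single genes were ranked by the length that switched. The gene with the most U3-to-U4 sequence was Ide, the insulin-degrading enzyme (chromosome 19, 37268743 to 37334544), with 26.8 of 41.6 kb of U3 (64.4%). U3 there covered 7.4 kb in SD 12m and 17 kb in CR 12m, and U4 covered 21.2 kb in SD 3m, 57.4 kb in SD 12m and 54.8 kb in CR 12m. At Trerf1, a zinc finger regulator of transcription, 18 of 45.6 kb moved, and its TSS bin went from U1 to U4 in both groups. A930011G23Rik, a non-coding RNA, had 20.4 kb and Rapgef6, an exchange factor of Rap GTPases, 18.8 kb. Ttll5 (18.6 kb), Arhgap26 (17.8 kb), Ralgps1 (16.6 kb), Babam2 (16 kb), Col15a1 (16 kb) and Cmss1 (15.4 kb) completed the first 10. Col15a1, which encodes a basement membrane collagen, had 0.8 kb of U4 in SD 3m, 49.2 kb in SD 12m and 47.2 kb in CR 12m.

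By the share of U3 that switched, among genes with at least 4 kb of U3, P2ry13 came first with all of its 5.8 kb (chromosome 3, 59207892 to 59210882). U4 covered 3.4 kb of its region of 13 kb in SD 3m and the whole region in SD 12m and in CR 12m. Dnm3os, a non-coding RNA transcribed from within Dnm3, and the microRNAs Mir214 and Mir199a-2 that it gives rise to, known from fibroblasts and stellate cells, had shares of 96.3%, 100% and 95.7%. These 3 genes share their sequence, as do their switched bins, and count as 1 locus. A930006I01Rik, Cenpc1, Gm41790 and LOC105245613 also had 100%, followed by Parp2, a sensor of DNA breaks (9.2 of 9.6 kb), and Pdp1, the phosphatase that activates pyruvate dehydrogenase (4.8 of 5.4 kb).

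The gene with the most U4-to-U3 sequence was Pde4d, a cAMP phosphodiesterase, with 31.4 of 135.4 kb of U4 in a region of 1311.8 kb. U3 there covered 186.4 kb in SD 3m, 256.8 kb in SD 12m and 337.0 kb in CR 12m. Gabbr2 (18.2 kb), a subunit of the GABA-B receptor, had 53.2% of its U4 switched, and its U3 covered 27.4 kb, 57.2 kb and 90.4 kb. Fggy (16.2 kb), Rora (15.2 kb), Pik3c2g (14.0 kb), Ppp4r4 (13.8 kb), Fyb2 (12.4 kb), Fetub (12.2 kb), Pde6c (12.2 kb) and Corin (12.0 kb) followed. Fetub encodes fetuin-B, which the liver secretes (chromosome 16, 22918382 to 22939768), and was also among the first by share, with 85.9% of its U4. Its U4 covered 14.2 kb in SD 3m, 1.6 kb in SD 12m and 0.4 kb in CR 12m, and its U3 8.4 kb, 22.2 kb and 24.6 kb.

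Among genes with at least 4 kb of U4, all of it moved to U3 at Usp18, which removes ISG15 from proteins (4.8 kb), Ces1g, a carboxylesterase in a cluster of similar copies (4.6 kb), and Sebox and Tmem199 (4.0 kb each). Sebox and Tmem199 are neighbours on chromosome 11, share these bins, and share 2.6 kb of them with Vtn. Sct (5.2 of 5.6 kb), Ppara, Scarb2 (3.8 of 4.2 kb), a lysosomal membrane protein, Abtb2 (3.6 of 4.0 kb) and Cyp2b10 completed the list with Fetub.

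**Figure D5:**
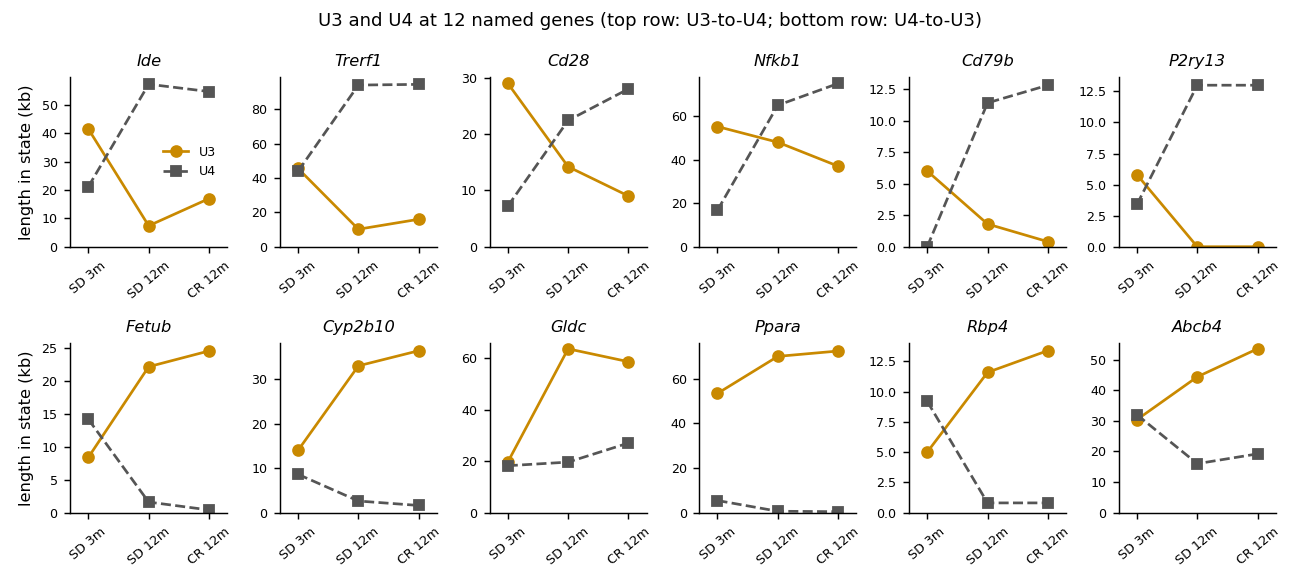
Length in U3 (circles) and U4 (squares) in kb (y axis) over the gene body with 5 kb on either side, in SD 3m, SD 12m and CR 12m (x axis), for 12 named genes with U3-to-U4 (top) or U4-to-U3 (bottom) sequence. Each point is 1 segmentation without replicates; at Ide U3 goes from 41.6 kb to 7.4 kb and 17 kb, and at Fetub U4 from 14.2 kb to 1.6 kb and 0.4 kb.

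The longest single stretches lay in or near genes of varied function. The longest U3-to-U4 stretch, 8.2 kb (chr5:100659401-100667600), covered introns and 600 bp of coding exons of Coq2, an enzyme of coenzyme Q synthesis. It was flanked by U5 in SD 3m and by U4 in both 12-month groups. The next ones were 8.0 kb in Btaf1, 6.6 kb of intergenic sequence 13 kb upstream of Ifnab in the type I interferon cluster, 6.2 kb in Rapgef6 and 6.0 kb in Ide. The longest U4-to-U3 stretch, 7.4 kb (chr9:55312001-55319400), was intergenic, 11.2 kb upstream of Tmem266. It was flanked by U3 in all 3 groups. Stretches of 6.8 kb lay 29.8 kb downstream of the start of Mir137 and in Fam20c, a kinase of secreted proteins, 1 of 6.6 kb lay in Fn1, the gene of fibronectin, and 1 of 6.0 kb lay 8.31 kb upstream of Insig2, a sterol-regulated inhibitor of SREBP processing. The window of 1 Mb with most U4-to-U3 bins (174 of 951 U4 bins) also held 104 U3-to-U4 bins. Its protein-coding genes are Cradd, Socs2, Mrpl42, Ube2n, Nudt4 and Eea1. The 2 windows with most U3-to-U4 bins (209 each) hold, among other genes, Rapgef6 on chromosome 11 and the toll-like receptor genes Tlr1 and Tlr6 on chromosome 5. The window counts do not assign bins to these genes.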

How the data were processed

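Per the labels and the study's methods, reads were aligned to mm10 with BWA 0.6.2-r126, reads of low mapping quality, duplicates and reads outside chromosomes 1 to 19 and X were removed with SAMtools 0.1.18, the libraries of each group were merged, and ChromHMM assigned 1 of 8 states to each bin of 200 bp. The deposited values are these state labels, neither counts nor signal. Python 3.11.15 (with the packages numpy 2.4.6 and pandas 2.3.3) was used to derive switched bins, stretches, gene counts and shares from the labels, without a filter on bins. TSS, gene bodies, exons and sequence came from GRCm38.p6 (RefSeq), with the longest NM or NR transcript of each gene. Repeats are bases in lower case, and GC content was taken over bins without unassembled bases. The functions were tested on simulated segmentations, where 100% of planted switches were recovered. This checks the code alone, because the labels planted were those searched for and no error of labels was simulated. Of 672 genes in 20 lists, 661 were matched on autosomes. Named genes were the 10 with most switched sequence, the 10 with the highest share among genes with at least 4 kb of the starting state, those at the 5 longest stretches, up to 6 called genes per list, and Alb, Apoa1, Hnf4a, Cyp7a1, Ghr and Igf1. The members, lists and joined lists were chosen with earlier results of these data known. Wilson 95% intervals take stretches as units, those of the starting state for the shares of bins switched and those of switched bins otherwise. For GC content they are not an error of the mean. Alternatives were chromosome X, stretches of at least 1 kb, bins away from state borders, 1 later group only, stretches counted once, and other gene regions and lengths. Some called genes of the lists are not reported here.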

Additional observations from a re-analysis of the deposited data

How the results depend on the processing

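The share of U3 bins that switched to U4 (3.68%) was 1.80% in stretches of at least 1 kb, 2.54% without bins that touch another state in SD 3m, 8.14% with SD 12m alone and 6.44% with CR 12m alone. The share of U4 bins that switched to U3 (4.60%) was 2.56%, 3.77%, 5.55% and 16.9% in the same order. The U3-to-U4 bins within 2 kb of a TSS (8.74%) made up 6.18% in stretches of at least 1 kb, 7.13% without border bins, 7.94% with SD 12m alone and 11.1% with each stretch counted once, and the U4-to-U3 bins (4.38%) made up 3.70% in stretches of at least 1 kb, 3.84% without border bins and 5.4% with each stretch counted once. The GC content of U3-to-U4 bins was 43.0% with SD 12m alone. The U3-to-U4 bins in gene bodies (56.2%) made up 58.6%, 57.3%, 54.9% and 54.3% in the order given for TSS, and the U4-to-U3 bins 53.3% with CR 12m alone. With 2 kb required, 1073 and 915 genes were called, with 20 kb on either side 4570 and 3672, and with the gene body alone 1665 genes U3-to-U4. The share of the 6 joined hepatocyte lists called U4-to-U3 was then 22% at 2 kb (7.86% of all genes) and 32.4% in gene bodies (15.9%), alternatives chosen after seeing the data, and it was 74.7% with CR 12m alone (42.9%). In each setting, the U3-to-U4 bins lay near TSS and in gene bodies more often and had the lower GC content. Of 66 alternative values, 35 stayed within the interval or within 1.5 times a count. For GC content the interval served only as a fixed range and not as an error of the mean. Beyond settings that change which bins enter, the cause was not tested. No paired analysis was possible because each group has 1 segmentation, and no replicate could be left out because libraries were merged before states were assigned. The depth of the merged files is unknown.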
